A study of Mus musculus with 4 samples.

Results

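The transcripts described here were assembled isoforms of named mouse genes. They are the rows of the deposited transcript table that had an ID with the prefix MSTRG in place of an Ensembl ID and that also had a gene name. There were 15995 of them among 160308 transcripts, and they belonged to 7639 of 52327 gene names. Total RNA of the line 46C was sequenced. These are embryonic stem cells of the mouse with a GFP reporter at Sox1. ESCs, the control group with 2 libraries, were grown in 2i, a medium with blockers of the kinases MEK and GSK3 that holds the naive state. The 2 rfISCs libraries were of the same line in PIF medium, which the labels place between the rosette and the formative stage of the epiblast. Both groups carry the reporter. The comparison asked which assembled isoforms differed in level, or in their share of their gene, between the culture states.

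A gene can give several RNAs that differ in their start, in the exons that are joined or in where the tail is added, and each such RNA is an isoform. Reference annotations such as Ensembl list the isoforms seen in earlier work, and an assembly from reads adds the structures that the reads of a given study describe. Isoforms of a gene can code for different proteins or carry different untranslated ends, and pluripotent cells change the isoforms of many genes as they leave the naive state. Short-read libraries do not read an isoform from end to end, so reads that fit several isoforms are divided among them by an estimate.

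Among the assembled isoforms was a transcript under the name of a microRNA gene, Mir367, which is shown here because its gene had no other signal in the table. The microRNA cluster of Mir302a to Mir302d and Mir367 is expressed in pluripotent cells of the epiblast, and its microRNAs repress messages that pair with their seed, bases 2 to 8 of the mature strand. The 3p mature strands of 4 of these 5 microRNAs, from RefSeq for build GRCm38.p6, are printed 5′ to 3′ with the seed in capitals. That of miR-302a is not printed.
mmu-miR-302b-3p: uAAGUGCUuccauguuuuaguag
mmu-miR-302c-3p: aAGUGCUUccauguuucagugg
mmu-miR-302d-3p: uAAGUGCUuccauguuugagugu
mmu-miR-367-3p: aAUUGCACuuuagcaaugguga
The strands of miR-302b and miR-302d share a seed. The listed strand of miR-302c begins 1 base later within the same run of letters, and the seed of miR-367 is different. The Mir367 hairpin lies on the plus strand at chr3:127545733-127545807 of build GRCm38.p6, inside the span of Larp7 on the minus strand.

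The assembled Mir367 isoform (MSTRG.16365.1) was 456 bases long, against 75 bases for the Ensembl hairpin, which was at 0 in every library. Its level was 0.66 and 0.30 TPM (a level scaled for transcript length and library size) in the ESCs libraries and 49.2 and 39.5 TPM in the rfISCs libraries. The groups did not overlap. The counts behind these levels were 2 and 1 in ESCs and 163 and 147 in rfISCs, a ratio of 89.5 with an exact 95% counting interval of 30.3 to 436. In edgeR's quasi-likelihood test the difference had an adjusted p of 0.0315. The Ensembl hairpins of Mir302a, Mir302b, Mir302c and Mir302d were listed at 0 in every library. Larp7, which codes for a protein that stabilises the 7SK RNA, had an assembled isoform of 2246 bases (MSTRG.16364.1) at 30.7 and 33.5 TPM in ESCs and 71.9 and 69.4 TPM in rfISCs. That isoform was 2.00-fold higher in rfISCs (adjusted p = 0.0301). Its share of Larp7 was 89.0% and 89.4% in ESCs and 74.3% and 73.7% in rfISCs, a difference that the share test did not call. Whether the counting used strand is not given in the sources used here, so reads of Mir367 and Larp7 from the overlap cannot be told apart. Mir367 and Larp7 were chosen after their values were seen.

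**Figure D1:**
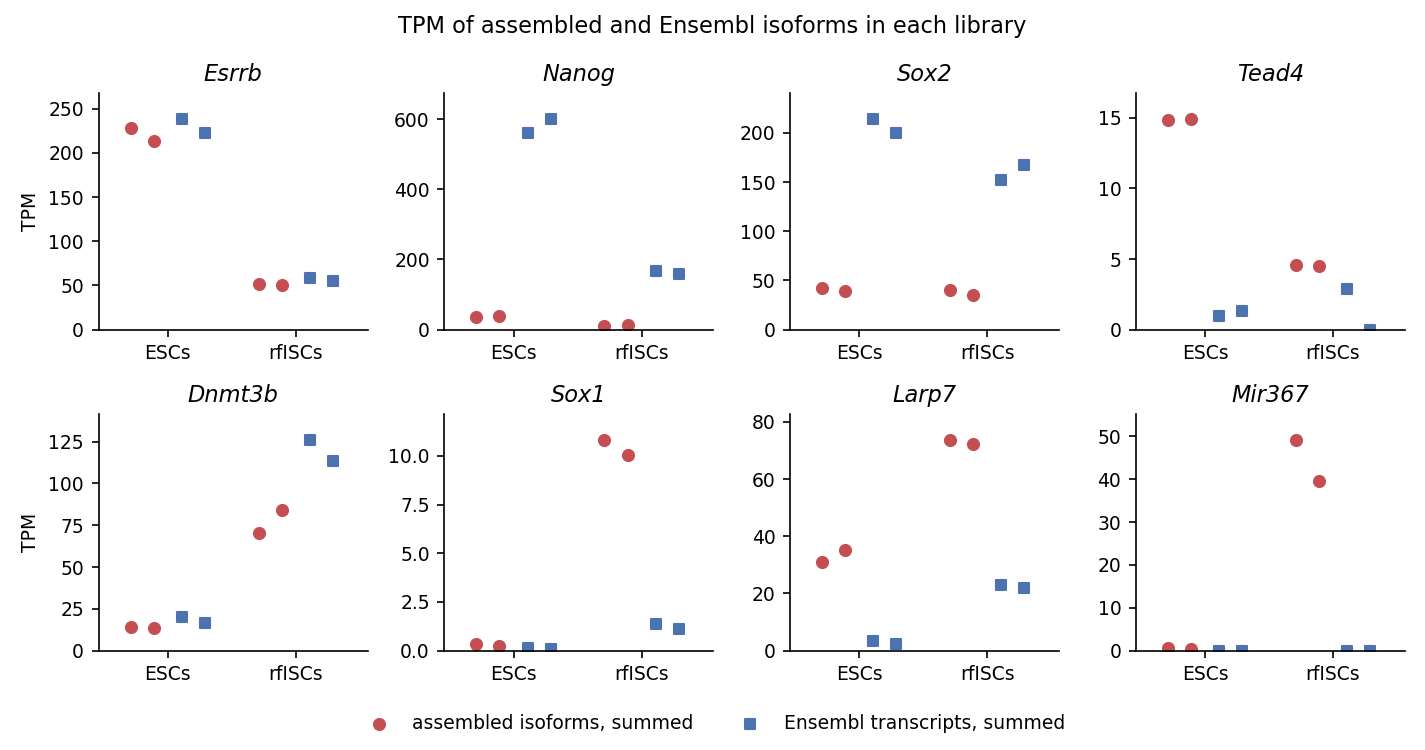
TPM in each of the 4 libraries (y axis, linear from 0, a separate scale per gene) of the assembled isoforms of a gene summed (circles) and of its Ensembl transcripts summed (squares), for ESCs and rfISCs. The assembled sums of Esrrb, Nanog and Tead4 sit lower in both rfISCs libraries, those of Dnmt3b, Sox1, Larp7 and Mir367 sit higher, and those of Sox2 overlap between the groups.

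Total estimated counts were between 19243701 and 23780989 per library. The naive markers Nanog, Esrrb, Klf4, Zfp42, Tbx3 and Tfcp2l1 summed to 1653 and 1643 TPM in ESCs and to 473 and 474 TPM in rfISCs. The formative markers Otx2, Pou3f1, Dnmt3b, Fgf5 and Lef1 summed to 56.9 and 46.6 TPM in ESCs and to 326 and 340 TPM in rfISCs, so the labels and the markers pointed the same way. The 7 fibroblast or feeder cell markers summed to 4.24 and 7.32 TPM in ESCs and to 10.98 and 10.3 TPM in rfISCs, with 1 of the 7 at 0 throughout. The 5 neural markers summed to 68.8 and 48.8 TPM in ESCs and to 131 and 127 TPM in rfISCs. The 3 primitive endoderm markers summed to 1.16 and 1.13 TPM in ESCs and to 2.27 and 1.81 TPM in rfISCs. The 3 trophoblast markers summed to 0.08 and 0.48 TPM in ESCs and to 1.14 and 0.95 TPM in rfISCs. Both sums were low and stood higher in rfISCs. In bulk libraries fewer cells of a type and less RNA per cell cannot be told apart.

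Assembled isoforms held between 16.7% and 17.2% of the counts of a library and between 8.30% and 8.51% of its TPM. A count was present in some library for 93.9% of them (15026 of 15995), against 74.6% of the 50370 Ensembl transcripts of the same genes. How the assembly was made is not given in the sources used here, and an assembly from these reads would hold transcripts chosen for having reads. The median length was 3557 bases, with a range of 200 to 26368. The Ensembl transcripts of the same genes had a median of 1113 bases, and the longest Ensembl transcript of each gene a median of 3395 bases. An assembled isoform was longer than every Ensembl transcript of its gene in 7389 cases (46.2%), and the median ratio to the longest was 0.988. The table gives a length and no exon positions, so the part of the gene in which an isoform differs was not analysed here.

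Of the gene names, 3981 had exactly 1 assembled isoform, 3297 had 2 to 5 and 361 had more than 5. Firre, a long non-coding RNA of the X chromosome made of repeated units, had 51. Ogfr, the opioid growth factor receptor, had 24, Ttc3 had 18 and Macf1, a large linker of actin and microtubules, had 17. By the gene classes of the GENCODE annotation, matched by symbol, 14239 isoforms belonged to protein-coding genes, 853 to long non-coding RNA genes, 546 to pseudogenes and 10 to small RNA genes. The median share of the gene was 5.87% for isoforms of protein-coding genes, 15.2% for those of long non-coding RNA genes and 23.1% for those of pseudogenes. At 198 assembled loci isoforms carried more than 1 gene name, so the assignment of 1093 isoforms to a gene is uncertain.

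The share of an isoform, its percentage of the summed TPM of its gene, was taken for the 14960 assembled isoforms of genes with at least 1 TPM in every library. The median share was 5.76% and 5.78% in ESCs and 5.86% and 5.79% in rfISCs. Their Ensembl counterparts had medians between 0.994% and 1.25%. Nearly 50% of the assembled isoforms (7433, or 49.7%) held under 10% of their gene in every library, and 705 (4.71%) held over 50% in every library. Summed over a gene, assembled isoforms held a median of 20.4% to 20.9% of the gene, over 50% in every library in 1238 genes and over 90% in 361 of 6831 genes.

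The 10 assembled isoforms with the highest mean TPM were led by Rps26 (MSTRG.2955.3), which codes for a protein of the small ribosomal subunit. Its level was 2333 and 2387 TPM in ESCs and 2214 and 2274 TPM in rfISCs, between 54.9% and 59.2% of its gene, and it was not called (adjusted p = 0.202). Mt2 (MSTRG.24609.1), a metallothionein that binds zinc and other metals, was at 1611 and 1886 TPM in ESCs and at 897 and 694 TPM in rfISCs. Mt2 fell 2.33-fold (adjusted p = 0.0484) and was the 1 called isoform among these 10. Rps18, the pseudogene Rps2-ps13, the ubiquitin gene Ubb, the mitochondrial import receptor Tomm20 and the ubiquitin ligase Nedd4 were also among them. Ribosomal protein genes have many near-identical processed pseudogenes, so the division of their reads is uncertain. The Nedd4 isoform of 5564 bases (MSTRG.25933.1) held between 94.7% and 96.4% of its gene at 397 and 404 TPM in ESCs and 536 and 552 TPM in rfISCs (adjusted p = 0.0508).

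Other isoforms of this abundant set were short. Tmtc2, which codes for a membrane protein of the endoplasmic reticulum, had an assembled isoform of 233 bases (MSTRG.2724.1) where its longest Ensembl transcript had 5629. It was at 1367 and 1296 TPM in ESCs and at 1260 and 895 TPM in rfISCs. These levels came from 441 and 465 counts in ESCs and 500 and 431 counts in rfISCs, as a short length raises TPM. Gphn, which codes for the synaptic scaffold gephyrin, had 1 of 408 bases against 3570 (MSTRG.5518.1), at 609 and 544 TPM in ESCs and 644 and 649 TPM in rfISCs, or 98.5% to 98.9% of the gene. Cmss1 had 1 of 580 bases against 1150 (MSTRG.10077.1), at 1294 and 1256 TPM in ESCs and 1266 and 446 TPM in rfISCs. The second rfISCs library was the lowest of the 4 for both Tmtc2 and Cmss1. None of the isoforms of Tmtc2, Gphn and Cmss1 was called for level or share.

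An assembled isoform held over 90% of its gene in every library in 194 cases, and 78 of these were shorter than 50% of the longest Ensembl transcript. Their median length was 834.5 bases. At 50 TPM or more in every library there were 27, of which 14 were shorter than 50% of the longest Ensembl transcript and 13 had under 600 bases. Examples chosen after their values were seen were Sspn, Nmnat3 and Nlgn1. Sspn, which codes for sarcospan of the dystrophin complex, had 280 bases against 4512 and between 292 and 397 TPM. Nmnat3, an enzyme of NAD synthesis, had 229 bases against 2166, with 467 and 542 TPM in ESCs and 120 and 178 TPM in rfISCs (adjusted p = 0.117). Nlgn1, a postsynaptic adhesion protein, had 903 bases against 11807, with 79.4 and 85.3 TPM in ESCs and 90.2 and 90.9 TPM in rfISCs. For these genes the gene level in TPM was thus nearly all from a short assembled transcript. A short length raises TPM for a given count. The counts of Sspn were 246 and 232 in ESCs and 333 and 321 in rfISCs. Those of Nmnat3 were 139 and 179 in ESCs and 44 and 80 in rfISCs, and those of Nlgn1 772 and 933 in ESCs and 934 and 1050 in rfISCs. Sntb1, a syntrophin, was unlike them, with an assembled isoform of 5582 bases against 4919 and between 344 and 369 TPM.

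**Figure D2:**
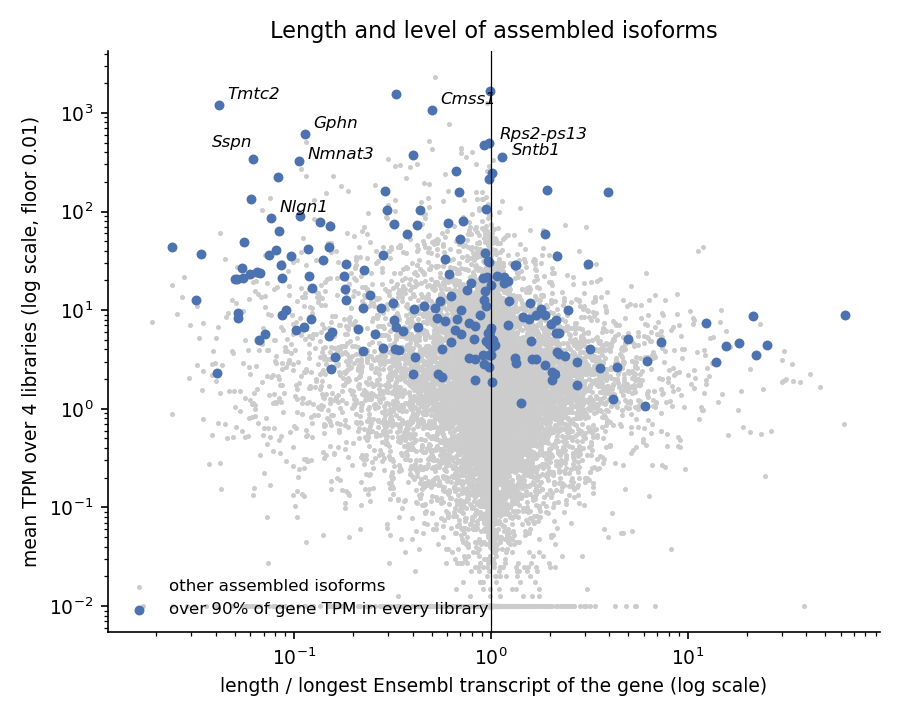
Each point is an assembled isoform of a gene with at least 1 TPM in every library, with its length divided by that of the longest Ensembl transcript of the gene on the x axis and its mean TPM over 4 libraries on the y axis, both on log scales. Large points are the 194 isoforms with over 90% of their gene in every library, and 78 of them lie left of a ratio of 0.5, among them Tmtc2, Gphn, Sspn and Nmnat3.

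Replicates of an assembled isoform differed more than replicates of a gene. Among the 8049 assembled isoforms with at least 20 counts in every library, the median absolute log2 ratio between replicates was 0.34 in both groups, and 13.2% (ESCs) and 13.1% (rfISCs) differed over 2-fold. The 21107 Ensembl transcripts with at least 20 counts had medians of 0.23 and 0.22, and sums over all transcripts of the genes with assembled isoforms had medians of 0.11 and 0.08. The median count was 184 for the assembled isoforms and 212 for the Ensembl transcripts. Nothing in the labels says that replicates were separate cultures, and p-values then measure the spread between these libraries alone, which may be technical. The division of reads among isoforms is an estimate with an error of its own that the tests do not cover.

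In the test of level, 504 of 12806 assembled isoforms were called at an adjusted p under 0.05, with 162 higher and 342 lower in rfISCs. That is 3.94%, near the 3.68% of all 50163 transcripts tested and the 3.59% of the Ensembl transcripts. Over all transcripts 1.74% were called higher and 1.94% lower. The other 3189 assembled isoforms did not pass the filter on low counts. No assembled isoform was called by edgeR without ESCs replicate 1, ESCs replicate 2, rfISCs replicate 1 or rfISCs replicate 2, where between 2831 and 3195 had an unadjusted p under 0.05 against 3121 with all 4 libraries. DESeq2 called 3158, among them all 504. The smallest adjusted p in the level test was 0.0187, so the named calls below stand near the threshold and rest on all 4 libraries.

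Of the called isoforms, 151 of the higher and 266 of the lower belonged to protein-coding genes, from which 11551 were tested. These class counts stand beside 1.74% called higher and 1.94% called lower over all transcripts. Among isoforms of long non-coding RNA genes 6 were called higher and 34 lower of 644 tested, and among those of pseudogenes 2 were higher and 30 lower of 346 tested. No count was present in ESCs for 30 of the isoforms called higher, and none in rfISCs for 21 of those called lower.

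**Figure D3:**
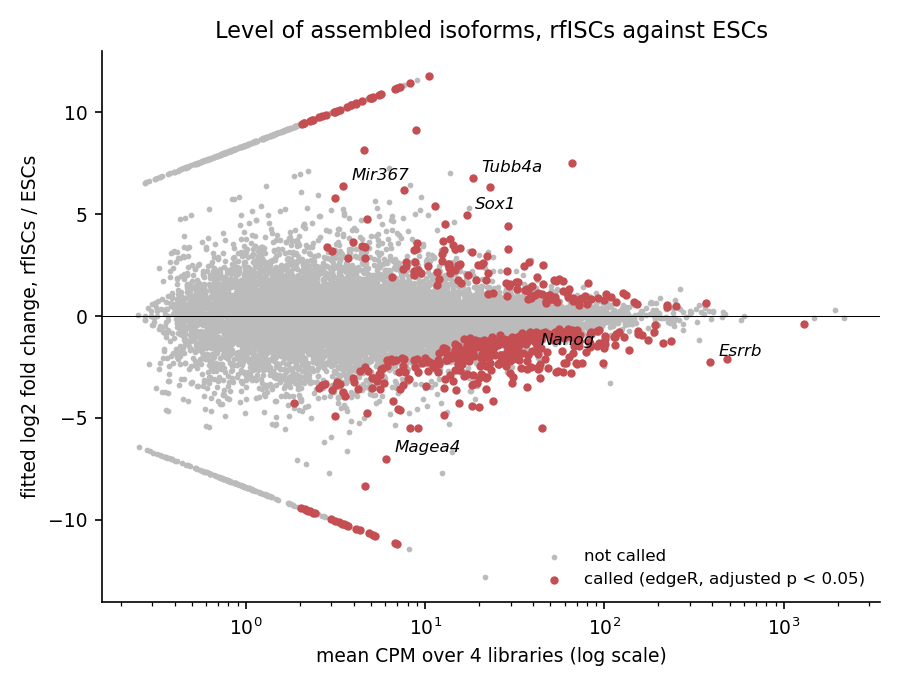
Mean CPM (counts scaled to library size) over 4 libraries on a log x axis and fitted log2 fold change of rfISCs over ESCs on the y axis for the 12806 assembled isoforms tested, with the 504 called ones as large points. Esrrb, Nanog and Magea4 lie below 0 and Sox1, Tubb4a and Mir367 above it; the slanted outer lines are isoforms with no count in a group, whose fitted values are no measure of size.

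Isoforms of naive pluripotency genes were lower in rfISCs where they were called. Assembled isoforms were present for 15 of the 27 listed genes, and of the 30 tested, 6 fell, none rose and 24 did not pass. Their median log2 fold change was -1.58, beside 0.03 over all transcripts tested. Esrrb, an orphan nuclear receptor of the naive network, had an assembled isoform of 3885 bases (MSTRG.5661.6) at 224 and 211 TPM in ESCs and at 51.0 and 50.1 TPM in rfISCs. The groups stood well apart, and the isoform fell 4.74-fold (log2 fold change -2.24, SE 0.043, adjusted p = 0.0187). Its share of Esrrb was 47.9% and 48.4% in ESCs and 46.2% and 47.3% in rfISCs, so the isoform and the Ensembl transcripts of Esrrb fell side by side.

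Nanog, the homeobox factor of naive cells, had an assembled isoform of 2227 bases (MSTRG.21275.2), close to the 2211 bases of its longest Ensembl transcript. It was at 36.4 and 38.7 TPM in ESCs and at 11.6 and 13.5 TPM in rfISCs (3.29-fold lower, adjusted p = 0.0271), and its share was between 6.05% and 7.83%. Zfp42, also called Rex1 and a marker of naive cells, had 1 called isoform (MSTRG.24034.1) at 7.12 and 6.77 TPM in ESCs and at 2.58 and 2.79 TPM in rfISCs (adjusted p = 0.0329). It was 5521 bases long against 1837 for the longest Ensembl transcript, and held under 1.7% of the gene. From Jam2, a junctional adhesion protein, 2 isoforms fell. The longer (MSTRG.10146.2) was at 21.5 and 18.7 TPM in ESCs and at 4.54 and 4.34 TPM in rfISCs (5-fold lower, adjusted p = 0.0195). Tfcp2l1, a factor of naive self-renewal, had a called isoform (MSTRG.923.4) at 2.79 and 2.30 TPM in ESCs and at 0.45 and 0.55 TPM in rfISCs. The largest assembled isoform of Tbx3 (MSTRG.19534.8) was at 4.91 and 6.66 TPM in ESCs and at 1.59 and 1.15 TPM in rfISCs and did not pass (adjusted p = 0.0551), nor did the isoforms of Prdm14. Pou5f1 and Klf4 had no assembled isoform.

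Of 31 tested isoforms of the genes listed as core pluripotency, 6 fell and 25 did not pass, with a median log2 fold change of -0.35. The list is wider than the core factors, as it also holds Tead4. Those that fell belonged to Tead4, L1td1 and Rif1, and none to Sox2. Sox2, the partner of Oct4, had 2 assembled isoforms of nearly the same length. The larger (MSTRG.15345.1) was at 32.2 and 30.8 TPM in ESCs and at 28.4 and 25.9 TPM in rfISCs and was not called (adjusted p = 0.0962). Rif1, a protein of replication timing, had an isoform of 9554 bases (MSTRG.13787.2) at 31.0 and 32.8 TPM in ESCs and at 13.5 and 17.4 TPM in rfISCs (2.28-fold lower, adjusted p = 0.0476). Its share was 34.7% and 32.5% in ESCs and 18.8% and 23.8% in rfISCs, a difference that the share test did not call (adjusted p = 0.894). Lin28a, which binds let-7 precursors, had an isoform (MSTRG.17755.2) at 0 and 0.15 TPM in ESCs and at 2.52 and 3.09 TPM in rfISCs, at most 1.56% of its gene, and it did not pass (adjusted p = 0.152). Trim71, an RNA-binding ubiquitin ligase of early development, had an isoform (MSTRG.26440.3) at 25.1 and 23.6 TPM in ESCs and at 38.9 and 47.2 TPM in rfISCs (adjusted p = 0.0709).

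Tead4, a TEAD factor that acts with YAP, was measured almost wholly through its assembled isoforms in ESCs, where they held 93.8% and 92.0% of the gene. In rfISCs they held 61.5% and 100%, as the Ensembl sum was 2.85 TPM in the first library and 0 in the other. The isoform MSTRG.21369.1 was at 9.45 and 8.22 TPM in ESCs and at 2.48 and 2.53 TPM in rfISCs (adjusted p = 0.0247). MSTRG.21369.5 was at 2.63 and 2.26 TPM in ESCs and at 0 in both rfISCs libraries, at least 99.3-fold lower with the floor set at 3 counts for the group (adjusted p = 0.0387). MSTRG.21369.3 was at 2.74 and 3.58 TPM in ESCs and at 2.07 and 1.98 TPM in rfISCs and did not pass (adjusted p = 0.224). The isoforms of Tead4 were thus called unevenly. Summed over all transcripts, Tead4 had a log2 fold change of -1.90 (adjusted p = 4.07e-07), and from Ensembl transcripts alone -1.63 (adjusted p = 0.339).

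Isoforms of formative epiblast genes were higher in rfISCs where they were called. Of 31 tested, 5 rose and 26 did not pass, with a median log2 fold change of 0.95. Dnmt3b, the de novo DNA methyltransferase that rises in the epiblast, gave 4 of the 5. Its isoform MSTRG.14692.1 was at 3.99 and 4.61 TPM in ESCs and at 19.9 and 34.0 TPM in rfISCs (5.69-fold higher, adjusted p = 0.049). MSTRG.14692.2 was at 6.23 and 5.4 TPM in ESCs and at 28.5 and 19.3 TPM in rfISCs (3.72-fold higher, adjusted p = 0.0443). These isoforms differed between the rfISCs libraries in opposite ways, while the assembled isoforms of Dnmt3b together held 40.9% and 45.4% of the gene in ESCs and 35.8% and 42.5% in rfISCs. MSTRG.14692.14 rose 6.30-fold and MSTRG.14692.13, a minor isoform under 1.6% of the gene, rose 10.9-fold. None of the 4 was called for share. The other was an isoform of Otx2, a homeobox factor of the formative epiblast, of 4807 bases (MSTRG.7905.2). It was at 0.17 and 0.15 TPM in ESCs and at 2.18 and 2.20 TPM in rfISCs (12.4-fold higher, adjusted p = 0.0356). The named isoform of Tcf7l1 (MSTRG.20740.1) did not pass, at 0.73 and 0.48 TPM in ESCs and at 0.63 and 2.21 TPM in rfISCs. Fgf5 had 1 assembled isoform under 1 TPM, and Pou3f1 and Lef1 had none.

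Among genes of DNA methylation and chromatin, 5 of 56 tested isoforms rose and 1 fell, with a median log2 fold change of 0.50, and 4 of the 5 were those of Dnmt3b. Tet2 and Tet3, which oxidise methylated cytosine, went opposite ways. The Tet2 isoform of 9316 bases (MSTRG.16443.1) was at 22.3 and 21.8 TPM in ESCs and at 4.76 and 5.23 TPM in rfISCs (4.88-fold lower, adjusted p = 0.0187), with 49.9% and 44.9% of Tet2 in ESCs and 56.3% and 53.6% in rfISCs. The Tet3 isoform (MSTRG.20819.2) was at 0.24 and 0.28 TPM in ESCs and at 1.60 and 1.55 TPM in rfISCs (5.46-fold higher, adjusted p = 0.0369). The largest assembled isoforms of Dnmt1, the maintenance methyltransferase, of Uhrf1, its cofactor, and of the remodeller Chd4 did not pass. Dnmt1 was at 46.0 and 36.8 TPM in ESCs and at 57.5 and 58.0 TPM in rfISCs (adjusted p = 0.192). The 3 named isoforms of Tet1 did not pass either, and that of Dnmt3a varied between replicates, at 9.88 and 4.53 TPM in ESCs and at 2.39 and 11.98 TPM in rfISCs.

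Of 10 tested isoforms of neural lineage genes, 2 rose and 8 did not pass, with a median log2 fold change of 1.41. The neural markers as a whole also stood higher in rfISCs, and their part in these results was not tested. Tubb4a, a beta-tubulin of neural tissue, had an isoform of 2163 bases (MSTRG.11300.1) at 0.24 and 0.19 TPM in ESCs and at 25.6 and 26.3 TPM in rfISCs (108-fold higher, adjusted p = 0.0187). It held 100% of Tubb4a in ESCs and 88.6% and 91.7% in rfISCs. Sox1, an early neural factor, had an isoform of 4569 bases (MSTRG.23778.2) at 0.36 and 0.25 TPM in ESCs and at 10.8 and 10.02 TPM in rfISCs (31.3-fold higher, adjusted p = 0.0199). It held 72% and 71.4% of Sox1 in ESCs and 88.8% and 89.9% in rfISCs. Summed over all transcripts Sox1 had a log2 fold change of 4.59, against 3.12 from Ensembl transcripts alone. The part of the GFP reporter at Sox1 in these values was not tested. The isoforms of Ncam1, a neural cell adhesion molecule, were lower in rfISCs and did not pass.

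Long non-coding RNA genes gave 3 isoforms that rose and 7 that fell of 55 tested, with a median log2 fold change of -0.15. Miat had an isoform of 8415 bases (MSTRG.19373.2) at 0.18 and 0.04 TPM in ESCs and at 22.7 and 20.98 TPM in rfISCs (adjusted p = 0.0275). Rian, a maternally expressed RNA of the Dlk1-Dio3 imprinted region, gave the other isoforms that rose, at 8.92 and 9.53 TPM in ESCs and 22.8 and 24.5 TPM in rfISCs for MSTRG.5947.10. Halr1, which lies beside the HoxA genes, had called isoforms of 2872 and 4603 bases against 511 for its longest Ensembl transcript. The shorter (MSTRG.20577.2) was at 13.0 and 10.2 TPM in ESCs and at 0.35 and 0.53 TPM in rfISCs (28.6-fold lower, adjusted p = 0.026). Platr14, named for its link with pluripotency, had 3 isoforms that fell, and Gas5, a host of small nucleolar RNAs, and Lncenc1 had 1 each. The largest assembled isoforms of Meg3 and Neat1 did not pass.

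The other lists held few calls. In polarity and lumen formation 1 of 31 tested rose, an isoform of the basolateral polarity gene Llgl1 (MSTRG.3590.2) at 23.2 and 21.7 TPM in ESCs and at 43.4 and 42.5 TPM in rfISCs (1.73-fold higher, adjusted p = 0.0275). It held between 89.2% and 96.9% of Llgl1. Podxl, the sialomucin of the apical surface and the lumen, had no assembled isoform. In FGF, MAPK and Wnt signalling 2 of 36 rose, from the Wnt receptor Fzd7 and the FGF receptor Fgfr2. Fzd7 (MSTRG.453.1) was at 7.71 and 6.72 TPM in ESCs and at 28.9 and 23.6 TPM in rfISCs (3.30-fold higher, adjusted p = 0.028). Of 81 tested isoforms of splicing and RNA-binding genes, 1 rose and 1 fell, with a median log2 fold change of 0.11. The isoform that rose was of Ptbp2, a splicing repressor of neural exons (MSTRG.16280.1), at 4.53 and 4.55 TPM in ESCs and at 10.7 and 10.4 TPM in rfISCs (2.11-fold higher, adjusted p = 0.0427). The isoform that fell was a minor one of Hnrnpa2b1 (MSTRG.20573.9), at 49.1 and 43.8 TPM in ESCs and 31.6 and 28.4 TPM in rfISCs (1.71-fold lower, adjusted p = 0.0438). The largest assembled isoforms of Hnrnpk, Hnrnpa1 and Hnrnpa2b1 did not pass.

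Genes of the 2-cell-like state gave 9 tested isoforms with a median log2 fold change of -3.83, of which 1 fell and 8 did not pass. The called isoform was of Zscan4d, a factor of cells that resemble the 2-cell embryo (MSTRG.21707.4), at 3.59 and 4.26 TPM in ESCs and at 0.13 and 0.14 TPM in rfISCs (adjusted p = 0.0315). Zscan4c, Zscan4d and Zscan4e are near-identical copies, so the division of reads among them is uncertain. None of the 4 tested isoforms of fibroblast and feeder cell genes passed, with a median log2 fold change of 0.00. Sparc (MSTRG.3488.1), a matrix protein, was at 97.1 and 92.2 TPM in ESCs and at 89.95 and 96.5 TPM in rfISCs. Neither of the 2 tested isoforms of primitive endoderm and trophoblast genes, of Lamb1 and Tfap2c, passed. Summed over all transcripts, Lamb1 had a log2 fold change of 2.79 (edgeR, adjusted p = 3.16e-07) and Tfap2c one of -0.61 (adjusted p = 0.00468).

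The 8 largest rises in fitted level were taken among called isoforms of at least 5 CPM with groups that did not overlap. Numbered clones were left out. The rises were from Ddx5, Dennd2a, Chd8, Sipa1l3, Gli3, Mtmr14, Hip1 and Sfswap, and each had no count in either ESCs library. Against a group with no count a fitted value is no measure of size, so the rule itself puts such isoforms first. Lack of overlap then adds little. The Miat isoform, 180-fold higher by the fit with 28 counts in ESCs, is not among the 8, though the lower bound for Sfswap was 131-fold. Ddx5, an RNA helicase, had an isoform (MSTRG.4524.3) at 9.68 and 7.12 TPM in rfISCs, at least 273-fold higher. It held 1.77% and 1.39% of Ddx5 there, and the gene as a whole had a log2 fold change of 0.05 (adjusted p = 0.283). The isoform of Chd8, a chromatin remodeller (MSTRG.7959.1), was at 2.06 and 2.74 TPM in rfISCs, at least 191-fold higher, with a gene log2 fold change of 0.09 (adjusted p = 0.285). The sums of the other 6 genes, which include the isoform itself, also rose. Gli3, a Hedgehog effector, and Hip1, an endocytic adaptor, had log2 fold changes of 1.70 and 2.03. From Ensembl transcripts alone both were called as well, at 1.45 and 1.91. The sums of Dennd2a, Sipa1l3, Sfswap and Mtmr14 rose by 0.77, 0.50, 0.39 and 0.26. From Ensembl transcripts alone these had log2 fold changes of 0.57, 0.02, 0.25 and -0.09, and none was called. The Dennd2a isoform (MSTRG.20452.4) held 31.8% and 24.5% of its gene in rfISCs, and the share test did not call it (adjusted p = 0.129). Zbtb16, a repressor with a zinc finger domain that was chosen after its values were seen, had an assembled isoform (MSTRG.25606.1) at 0 in ESCs and at 2.30 and 2.46 TPM in rfISCs, with 69.7% and 88.2% of the gene.

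The 8 largest falls by the same rule were from Mrpl15, Ror2, Ogdh, Trip11, Magea4, Aldh3a1 and 2 isoforms of Halr1. The isoforms of Mrpl15, Ror2, Ogdh and Trip11 had no count in either rfISCs library, so the rule put these first as well. Mrpl15, a protein of the mitochondrial ribosome, had an isoform (MSTRG.17.3) at 6.29 and 11.02 TPM in ESCs, at least 214-fold lower in rfISCs, and a gene log2 fold change of -0.19. Ror2, a Wnt5a receptor, had an isoform (MSTRG.6512.4) with 32.8% and 62.5% of the gene in ESCs at 3.56 and 6.05 TPM, at least 207-fold lower in rfISCs. The share test did not call it (adjusted p = 0.114). Ror2 summed over all transcripts had a log2 fold change of -0.11 (adjusted p = 0.364) and over Ensembl transcripts alone of 1.17 (adjusted p = 0.0295). Magea4, a cancer-testis antigen, had an isoform (MSTRG.26985.1) at 6.68 and 7.19 TPM in ESCs and at 0.06 and 0.05 TPM in rfISCs (128-fold lower, adjusted p = 0.0199). The counts of this isoform were 214 and 260 in ESCs and 2 and 2 in rfISCs. Aldh3a1, an aldehyde dehydrogenase, had an isoform (MSTRG.3608.4) at 23.0 and 16.7 TPM in ESCs and at 0.29 and 0.67 TPM in rfISCs (44.8-fold lower, adjusted p = 0.0351). In Magea4, Halr1 and Aldh3a1 the gene sum, which includes the isoform, had log2 fold changes of -7.15, -4.79 and -4.40. From Ensembl transcripts alone Halr1 and Aldh3a1 had -4.79 and -3.36, and Magea4 was not tested.

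The share of the gene was tested on its own, from counts, since an isoform can change place with another while the gene stays level. Of 12397 assembled isoforms, 173 were called, with 101 gains and 72 losses in rfISCs. That is 1.40%, beside 1.01% of all 44468 transcripts tested (0.627% gained and 0.385% lost) and 0.864% of the Ensembl transcripts. Of the gains, 91 had no count in ESCs, and of the losses 58 had no count in rfISCs, so most calls were isoforms present in 1 state and not detected in the other. Without 1 library between 79 and 112 were called (79 without ESCs replicate 1, 110 without ESCs replicate 2, 100 without rfISCs replicate 1 and 112 without rfISCs replicate 2), of which between 31 and 39 were among the 173. Both tests called 37 isoforms. For genes of at least 5 TPM in every library and shares that did not overlap, 93 gains and 65 losses remained, with a median move of 3.81 percentage points, and 19 moved by at least 10 points. The same count for Ensembl transcripts is not given here, so these numbers are no trait of assembled isoforms. Where a group had no count, the lack of overlap adds little to the call.

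Among isoforms called by the share test in such genes, with numbered clones left out, the 8 largest gains of share were from Mtmr14, Sec22c, Ints13, Zdbf2, Sipa1l3, Ift88, Mbd1 and Lrrc28. Mtmr14, a phosphoinositide phosphatase, had an isoform (MSTRG.21115.1) with 0% of the gene in both ESCs libraries and 20.4% and 20.5% in rfISCs (edgeR share test, adjusted p = 0.00148). Ints13, a subunit of the Integrator complex, had an isoform (MSTRG.21518.2) that went from 6.62% and 3.57% to 23.6% and 17.3% (adjusted p = 0.0336). Its gene sum had a log2 fold change of 0.14, which was not called, and its Ensembl transcripts alone had one of -0.44 (adjusted p = 0.0175). Zdbf2, a paternally expressed imprinted gene, had an isoform (MSTRG.500.7) that went from 3.98% and 2.86% to 20.4% and 13.7% (adjusted p = 0.0166) and rose in level as well, from 0.64 and 0.44 TPM to 7.16 and 4.64 TPM. Sec22c, of vesicle transport, had an isoform (MSTRG.26528.3) at 0% in ESCs and at 27.0% and 14.6% in rfISCs (adjusted p = 0.00169). Ift88, needed for the assembly of cilia, had one at 0% in ESCs and at 10.3% and 11.3% in rfISCs (MSTRG.8122.2, adjusted p = 0.00621). Mbd1, which binds methylated DNA, had one at 6.11% and 14% in rfISCs and 0% in ESCs, while the gene fell by 1.03 on the log2 scale.

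The 8 largest losses among isoforms called by the share test, by the same rule, were from Ebag9, Coil, Chmp4c, Tle6, Pikfyve, Gstp1, Trmt44 and Tpm1. Ebag9 had an isoform (MSTRG.8806.3) with 45.7% and 39.7% of the gene in ESCs and 0% in both rfISCs libraries (adjusted p = 0.0411). It was at 3.95 and 3.51 TPM in ESCs, at least 73.1-fold lower in rfISCs, while the gene sum had a log2 fold change of 0.45 (adjusted p = 0.0257). Chmp4c, a subunit of the ESCRT-III complex that cuts membranes, had an isoform (MSTRG.15201.2) that went from 38.7% and 36.7% to 3.61% and 4.14% (adjusted p = 0.000357). Gstp1, a glutathione transferase, had one that went from 29.2% and 23.7% to 8.05% and 11.5% (MSTRG.12300.3, adjusted p = 0.0116), at 212 and 161 TPM in ESCs and 26.3 and 43.0 TPM in rfISCs. Gstp1 has a near-identical neighbour, so its division of reads is uncertain. Tle6, a protein of the maternal complex of oocytes, had an isoform with 29.7% and 23.3% in ESCs and 0% in rfISCs (MSTRG.2533.1, adjusted p = 0.0313). Pikfyve, a lipid kinase of endosomes, had one with 23.4% and 25.6% in ESCs and 0.497% and 0% in rfISCs (MSTRG.540.4, adjusted p = 0.0401). Tpm1, a tropomyosin known for many isoforms, had one with 8.36% and 14.4% in ESCs and 0% in rfISCs (MSTRG.25863.16, adjusted p = 0.0101), while the gene rose by 1.73 on the log2 scale.

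**Figure D4:**
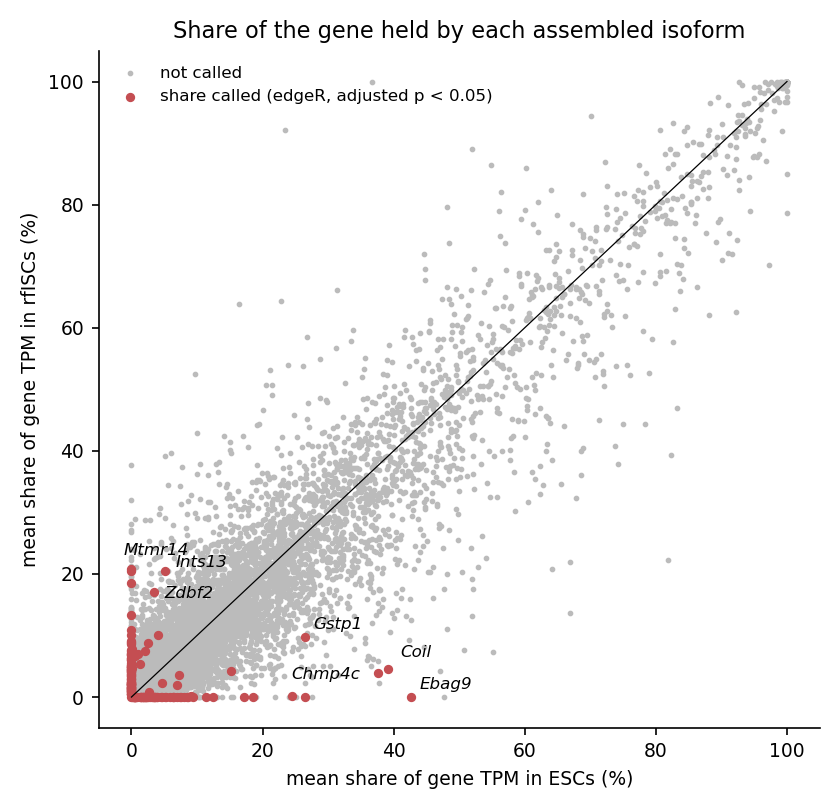
Mean share of gene TPM in ESCs (x axis, percent) against that in rfISCs (y axis, percent) for each assembled isoform of a gene with at least 5 TPM in every library. Large points are isoforms called by the share test; most lie on an axis, at 0% in one state, and the diagonal marks equal shares.

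Among the lists, calls of share were few. Over all transcripts tested for share, 0.627% gained and 0.385% lost. In splicing and RNA-binding genes 3 of 81 tested isoforms lost share and none gained. They belonged to Hnrnpa2b1, Srsf2 and Tra2b, genes of RNA-binding proteins that bear on splice site choice. The Hnrnpa2b1 isoform (MSTRG.20573.7) went from 4.22% and 5% to 2.40% and 2.27% (adjusted p = 0.0429). Those of Srsf2 and Tra2b held under 0.3% in ESCs, on 37 and 26 counts over both libraries, and had no count in rfISCs. An isoform of L1td1 (MSTRG.17213.3) and one of Kmt2d, a histone methyltransferase (MSTRG.9353.8), gained share from 0% to at most 3.20% and 1.17%. No isoform of the naive, formative, polarity, signalling, long non-coding RNA or neural lists was called for share.

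The isoform with the largest share was followed in the 5527 genes of at least 5 TPM in every library with an assembled isoform. In 756 of them 1 assembled isoform was the largest in every library. In 59 genes an assembled isoform was the largest in both ESCs libraries and an Ensembl transcript in both rfISCs libraries, and in 31 genes the reverse held. The genes of highest level among them, taken after the switch was seen and with numbered clones left out, were Ogt, Rif1, Cops7a and Smarcad1 in the former set and Ndufb11, Arglu1, Ndufs1 and Ctsa in the latter. Ogt, the transferase that adds GlcNAc to nuclear proteins, had an assembled isoform (MSTRG.27188.6) with 37.2% and 33.8% in ESCs and 34.4% and 33.4% in rfISCs. The Ensembl transcript of 5384 bases that passed it went from 23.7% and 24.7% to 36.4% and 38.8%. Ndufb11, a subunit of respiratory complex I, had an assembled isoform (MSTRG.26771.1) at 43.2% and 40.1% in ESCs and at 61.3% and 57.9% in rfISCs. The share test called neither isoform in any of these 8 genes. Switches from one Ensembl transcript to another, and changes of the largest isoform between replicates of a group, were not counted here. The 59 and 31 genes therefore have no rate to stand beside and are not read as switching between the states.

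Gene sums were tested with and without their assembled isoforms. Counts summed by gene name over all transcripts gave 8783 called genes of 16355 tested (53.7%), and sums over Ensembl transcripts alone gave 6305 of 15763 (40.0%). Without rfISCs replicate 1 or rfISCs replicate 2 the Ensembl sums gave 4020 and 3954 called genes. Of the genes with an assembled isoform, 4443 of 7367 tested were called with all transcripts and 2781 of 6775 with Ensembl transcripts alone, and 2641 were called in both. A further 1481 were called with all transcripts and tested but not called with Ensembl transcripts alone, 321 were called and not tested without the assembled isoforms, and 140 were called with Ensembl transcripts alone. Genes with no assembled isoform have the same counts in both sums, and their calls also went down, from 4340 to 3524 of 8988 tested, with 816 called with all transcripts alone. Pou5f1, which has no assembled isoform, had log2 fold changes of -0.97 (adjusted p = 2.18e-07) and -0.98 (adjusted p = 0.000109). The 1481 therefore include calls that differ with the fit to the whole table, and how many of them depend on assembled isoforms was not tested. The median absolute difference between both log2 fold changes of a gene was 0.09. The sums share reads, so no test was made between them. Of 455 called isoforms whose gene was tested with Ensembl transcripts alone, 407 had the direction of the Ensembl sum. Across 5893 assembled isoforms of at least 5 CPM, Spearman's rho between the log2 fold change of the isoform and that of the Ensembl sum was 0.50, as a description, since isoforms of a gene and transcripts of a library are not independent.

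Prkci, the atypical protein kinase C of apical polarity, was called with all transcripts and not with Ensembl transcripts alone. Its largest assembled isoform (MSTRG.15300.2) held between 50.2% and 70.3% of the gene, at 64.2 and 59.2 TPM in ESCs and at 31.2 and 41.5 TPM in rfISCs (adjusted p = 0.0766). The Prkci sum fell by 0.69 on the log2 scale with all transcripts (adjusted p = 6.79e-06), and its Ensembl transcripts alone had a log2 fold change of -0.22 (adjusted p = 0.514). Gsk3a, a kinase of the Wnt pathway and a target of the inhibitor in 2i, had an assembled isoform (MSTRG.21958.4) with 51.6% to 63.8% of the gene. The Gsk3a sum had a log2 fold change of 0.36 with all transcripts (adjusted p = 0.0108) and of -0.05 without the assembled isoforms (adjusted p = 0.888). Trim71 was not tested from Ensembl transcripts alone and had a log2 fold change of 0.56 with all transcripts (adjusted p = 5.38e-05).

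In 18 genes the sum was called in opposite directions, 16 of them lower with all transcripts. Coil, which codes for coilin of the Cajal bodies, is an example. Its assembled isoform of 4233 bases (MSTRG.4141.1) was at 9.45 and 12.2 TPM in ESCs and at 0.84 and 1.57 TPM in rfISCs, while its Ensembl transcripts were at 16.7 and 16.8 TPM in ESCs and at 26.3 and 25 TPM in rfISCs. In counts, Coil had a log2 fold change of -0.57 with all transcripts (adjusted p = 0.000298) and of 0.36 with Ensembl transcripts alone (adjusted p = 0.0249). The TPM of Coil summed over all transcripts overlapped between the groups. Pias2, a SUMO ligase, had assembled isoforms at 36.5 and 40.6 TPM in ESCs and at 17.99 and 18.4 TPM in rfISCs, and Ensembl transcripts at 35.6 and 38.8 TPM in ESCs and at 41.4 and 40.9 TPM in rfISCs. Its log2 fold changes were -0.78 and 0.25. Snx18, a sorting nexin, had log2 fold changes of -0.36 and 0.48. Counts and TPM weigh long and short transcripts differently. In Cntnap2, a neurexin-like adhesion protein, and in Myo9a and Zfp386 the sum of TPM was higher in rfISCs. The counts of all transcripts gave log2 fold changes of -0.49, -0.44 and -0.26. In Nmnat2 the Ensembl transcripts were at 12.6 and 12.5 TPM in ESCs and at 4.89 and 3.81 TPM in rfISCs. The counts of the Ensembl transcripts of Nmnat2 gave a log2 fold change of 1.04. In Pkd1 the Ensembl TPM was 12.08 and 8.65 in ESCs and 20.52 and 18.4 in rfISCs, with -0.34 from counts. In Wdtc1 it was 54.98 and 48.22 in ESCs and 48.19 and 47.81 in rfISCs, with 0.53 from counts. The Ensembl TPM of Nav1, Dock8 and Zfp946 overlapped between the groups. In Pias2 and Snx18 TPM and counts went the same way. These 18 genes were found from their values.

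**Figure D5:**
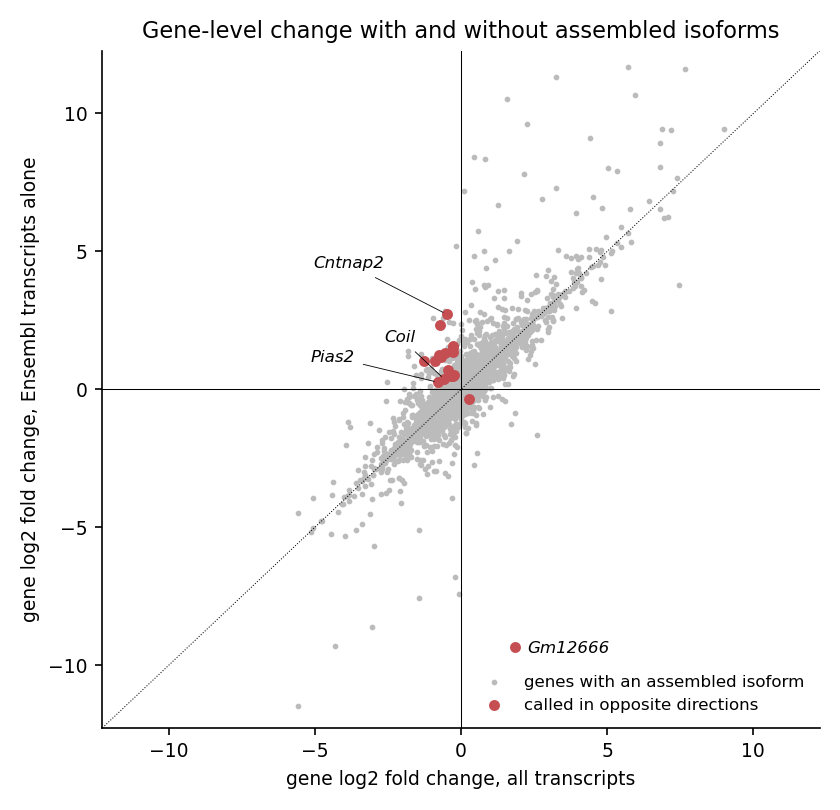
Log2 fold change of rfISCs over ESCs from counts of all transcripts of a gene (x axis) against that from its Ensembl transcripts alone (y axis), for genes with an assembled isoform tested in both. Large points are the 18 genes called in opposite directions, among them Coil at -0.57 and 0.36 and Pias2 at -0.78 and 0.25; the dotted line marks equal values.

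The authors' deposited table marked 3597 transcripts as significant, of which 1056 were assembled isoforms of named genes, 526 up and 530 down. The adjusted p that the authors' deposited table gives was under 0.05 for 3002 assembled isoforms, and every transcript marked as significant had an absolute log2 fold change of at least 2.32.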

How the data were processed

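RNA sequencing of total RNA gave 4 libraries, 2 of ESCs and 2 of rfISCs. The authors' deposited table lists transcripts in rows and gives estimated counts and TPM for each library, per the file headers. The estimated counts have decimals and library totals that differ. The authors' deposited fold ratio of rfISCs to ESCs, its log2 and its p-value and adjusted p-value served as a description alone. Bowtie 0.12.2 and build mm9 are named in the submitters' processing notes. The assembler, the quantification tool and the authors' test are not given in the sources used here. Of the Ensembl IDs 98.1% were in the GENCODE annotation of GRCm38, so the build of the table is not settled and no coordinates from it are given.

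Transcripts without a gene name (between 1.22% and 1.62% of counts) stayed out of library sizes and tests. Counts were rounded and tested per transcript with edgeR 4.0.16 (R 4.3.3) by its quasi-likelihood test, after filterByExpr with a minimum count of 10 and TMM scaling, on all 4 libraries with the group as the model term. Shares were tested with diffSpliceDGE on the same fit. That test compares the change in counts of each transcript that passed the filter with the change of its gene. The printed shares of TPM, taken over all transcripts of a gene, are a description beside it. Calls are at a Benjamini-Hochberg adjusted p under 0.05 over all transcripts tested. Genes were tested on counts summed by name. Folds come from the fit. Against a group with no count, a fold is a lower bound, with 3 counts taken for the group as its floor, and with 1 to 3 counts a ratio has an exact 95% interval; both cover counting error alone. An exact two-sided permutation test of 2 libraries against 2 cannot go below p = 0.333, so calls rest on the models. The tests were run on simulated counts with the same spread for every transcript and no error from the division of reads. That run does not show how they behave at the spread of these replicates.

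The isoforms, lists and rules were chosen with earlier results of these data known. The rule named 99 isoforms. These were the 10 of highest mean TPM; the 8 largest gains and losses of share among isoforms called for share in genes of at least 5 TPM; the 8 largest rises and falls among isoforms called for level of at least 5 CPM, both with groups that did not overlap; up to 3 of highest TPM in each of 12 lists; and those of at least 1 TPM from 20 pluripotency genes. Numbered clones were left out of all but the last kind. Other called isoforms of the lists are named because they passed. Replicates differed by more than sampling noise (chi-square per degree of freedom of 16.4 and 19.9). Alternatives were other scaling, no filter, each library left out, the replicate number as a block, DESeq2 1.42.0 and limma 3.58.1 on log2(TPM + 1), log2(TPM + 0.1) and arcsine shares, and a robust spread, which was added after the data were seen.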

Additional observations from a re-analysis of the deposited data

How the results depend on the processing

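The 504 calls of level became 813 without a filter, 768 with limma on log2(TPM + 1), 535 with a pseudocount of 0.1, 3158 with DESeq2 and 0 with the replicate number as a block (2578 at an unadjusted p under 0.05); without 1 library edgeR called 0 in all 4 cases. The 173 calls of share became 52 without a filter, 53 under the block (51 of them among the 173), between 79 and 112 without 1 library, and 0 with limma on arcsine shares, where 1348 had an unadjusted p under 0.05. Same-numbered libraries did not deviate together (correlation -0.0147). This cannot show whether they were paired, which the labels do not state. The block gave 8825 and 5470 genes for the sums with and without assembled isoforms. The 6305 genes called from Ensembl transcripts alone became 3954 to 5876 without 1 library, and the 8783 from all transcripts 6813 to 9284. With library totals the share of called genes that were higher was 59.2% for all transcripts and 61.3% for Ensembl transcripts alone, against 50.9% and 51.5% with TMM. Limma on TPM moved the median log2 fold change of all transcripts to 0.11 and 0.14. The 705 isoforms with over 50% of their gene became 434 in genes of at least 5 TPM and 906 by counts. Of 67 named results, no direction turned; 63 kept their side of the threshold with DESeq2's size factors, 67 with library totals and 58 without a filter, but 11 under the block and between 8 and 12 without 1 library. The causes were not tested. Near 20 counts an isoform's share and fold rest on few reads.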
